A study of Mus musculus with 4 samples.

Results

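The genes described here are 10 neurotrophic factor and FGF signaling genes: the receptors Fgfr1, Fgfr2, Fgfr3, Ret, Gfra1, Ntrk2, Ntrk3, Cntfr and Lifr, and the ligand Fgf1. They were taken by symbol from the 27189 genes in the files, and each had 1 entry. The set was chosen by the family of the genes and by the RPKM of Fgfr1 in these libraries, whose lower level in G85R was already known. The differences of the 10 genes between genotypes are therefore given as a description, without p-values, and nothing is read from calls among them.

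RNA had been sequenced from motor neuron cell bodies captured by laser from spinal cord sections of mice at 3 months of age, in 4 libraries, each from 1 mouse. In all mice, on a C57BL/6J x SJL/J background, a genomic transgene for human SOD1 was fused at its end to YFP, a yellow fluorescent protein. In the 2 wild-type libraries (strain 592) the fusion was wild-type, and in the 2 G85R libraries (strain 737) it carried the G85R mutation, a cause of familial amyotrophic lateral sclerosis. The wild-type mice were thus transgenic controls, the G85R strain held far more copies of the transgene, and genotype, copy number and strain cannot be told apart. Between 3000 and 4000 cell bodies were collected per animal, and cells with large aggregates were not taken, so that the G85R libraries do not cover them. With 2 mice per genotype, a two-sided exact permutation test of a single gene cannot go below p = 0.333.

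Motor neurons depend on secreted factors from muscle, glia and other neurons. FGFs bind receptor tyrosine kinases (Fgfr), GDNF binds Gfra1 and signals through the kinase Ret, BDNF and neurotrophin-3 bind the kinases Ntrk2 (TrkB) and Ntrk3 (TrkC), and CNTF and LIF act through Lifr, with Cntfr as the subunit specific to CNTF. These receptors feed the Ras and MAP kinase, PI3 kinase and Akt, and Jak and Stat pathways, and FGF receptors induce their own inhibitors, the Sprouty and Spred proteins and the Dusp phosphatases.

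All 10 of the motor neuron markers listed were present in the 4 libraries, among them Chat, the acetylcholine-synthesizing enzyme, at 49.6 to 81.2 RPKM (reads per kilobase of transcript and 1e6 mapped reads). G85R replicate 1 stood apart on markers of some other cell types. Its summed RPKM of astrocyte markers was 162% of the wild-type mean and that of microglial markers 167%, against 104% and 111% in G85R replicate 2. In it, 10 of 10 astrocyte, 9 of 9 oligodendrocyte, 10 of 10 microglial and 6 of 6 interneuron markers were at their highest. Its motor neuron markers summed to 82.7% of the wild-type mean. Markers of oligodendrocyte precursors (98.7%, with 1 of 6 at its highest) and of endothelium (92.5%, with 2 of 8) were not raised in it. The estimated reads on genes numbered 21560318 to 25186594 per library, and 1 read was worth 0.0195 to 0.0226 RPKM (medians over genes).

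**Figure D1:**
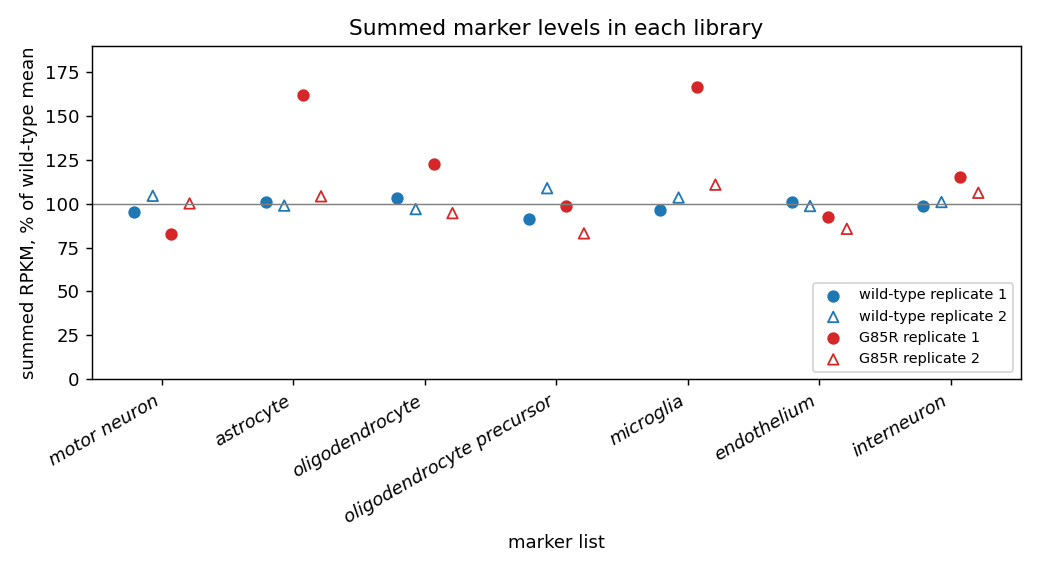
Summed RPKM of 7 lists of cell type markers in each library, in percent of the mean of the 2 wild-type libraries (y axis; each point is 1 library). G85R replicate 1 lies at 162% for astrocyte and 167% for microglial markers, above the other 3 libraries.

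Fgfr1, the FGF receptor with by far the highest level in these cells, was lower in both G85R libraries. It was at 72.7 and 82.1 RPKM in wild-type replicates 1 and 2, and at 51.1 and 52.4 RPKM in G85R replicates 1 and 2. The genotypes did not overlap, and the G85R libraries lay close together. The means were 77.4 ± 6.59 and 51.7 ± 0.909 RPKM (SD, n = 2 each), a level 1.50-fold higher in wild-type, or a log2 difference of -0.58 ± 0.11 (SE from limma, on log2(RPKM + 0.1), G85R minus wild-type, as for all differences below). Behind these values stood an estimated 3935 and 4717 reads in wild-type and 2525 and 2749 reads in G85R. Of the 11530 genes tested, those with a mean of at least 1 RPKM, 325 (2.82%) had a difference as low as that of Fgfr1 or lower. In RNA from whole captured cell bodies, fewer cells carrying a transcript and less of it per cell cannot be told apart.

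The lower level of Fgfr1 was of like size in both G85R mice, 66.0% of the wild-type mean in replicate 1 and 67.7% in replicate 2. Its difference was -0.56 without G85R replicate 1 and -0.60 without G85R replicate 2. The astrocyte marker Gfap was at 11.5 and 17.1 RPKM in wild-type and at 91.9 and 28.4 RPKM in G85R replicates 1 and 2. It was 1 of 3 among the 10 astrocyte markers that were higher in G85R without overlap (17.3% of all tested genes), and 0 were lower. Summed over the 10, G85R replicate 2 was at 104% of the wild-type mean. A part of astrocyte RNA in these values was not tested. For Fgfr1, the replicates of a genotype differed by 0.17 (wild-type) and 0.04 (G85R) on the log2 scale.

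Fgfr1 lies on chr8:26624126-26686186, plus strand (NCBIM37, the mm9 assembly, with GENCODE M1 genes, as for all positions here). The study designed 2 primer sets for qRT-PCR of this transcript, and they are shown because they are the study's own probes of Fgfr1. Capitals mark the bases that both sets share in the same direction.
Fgfr1 set 1 forward: gcgggagcgcAAGACACAGA
Fgfr1 set 1 reverse: GAGCGTGGTCTGCCTTCGCa
Fgfr1 set 2 forward: AAGACACAGAcacccgccgc
Fgfr1 set 2 reverse: tGAGCGTGGTCTGCCTTCGC
The forward primers lie in exon 1 of 18 of the transcript Fgfr1-001, at chr8:26629828-26629847 and chr8:26629838-26629857. The reverse primers lie on the minus strand in exon 2, at chr8:26642730-26642749 and chr8:26642731-26642750. Both exon stretches belong to the 5′ untranslated region, and the products, of 102 and 93 bases, span the first intron. The forward primers matched 4 of the 7 annotated coding transcripts of Fgfr1 and the reverse primers 6 of 7. None matched a coding transcript of another gene without mismatch, and against Fgfr2, Fgfr3 and Fgfr4 the fewest mismatches were 5 to 8 per primer. The qRT-PCR values were not used here, and RPKM do not tell the transcripts of a gene apart.

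The FGF receptors are near relatives, so the longest stretch of identical bases that their coding transcripts share was looked up and set beside the read length of 75 bases. It was 26 bases for Fgfr1 and Fgfr3, 20 for Fgfr1 and Fgfr2, and 17 for Fgfr2 and Fgfr3, each shorter than a read. Stretches with mismatches were not searched, so this does not show how reads with mismatches were assigned. The longest identical stretch is printed with its counterpart in Fgfr2, where a capital marks the base that differs.
Fgfr1: gagatggagatgatgaaaatgattgg
Fgfr3: gagatggagatgatgaaaatgattgg
Fgfr2: gagatggagatgatgaaGatgattgg
They lie in coding exon 12 of 18 in each gene, at chr8:26680651-26680676 (Fgfr1, plus strand), chr5:34076543-34076568 (Fgfr3, plus strand) and chr7:137323926-137323951 (Fgfr2, minus strand). Reads carry no strand information here, and the exons of Fgfr1 overlapped those of the gene Gm16159 on the other strand over 125 of 8061 bases (1.55%).

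Levels of the 10 genes spanned a wide range in every library. Fgf1, an FGF without a signal peptide that binds all FGF receptors, was the most abundant at 234 to 262 RPKM, and only 218 of the 27189 genes had a higher mean. Ret followed at 81.4 to 122 RPKM, then Fgfr1 at 51.1 to 82.1, Cntfr at 52.1 to 59.8, Gfra1 at 32.3 to 47.7 and Ntrk2 at 15.8 to 19.7 RPKM. Fgfr3, Ntrk3, Lifr and Fgfr2 lay between 3.53 and 8.81 RPKM. The ranges over the 4 libraries overlapped for the neighbors Ret and Fgfr1, Fgfr1 and Cntfr, Fgfr3 and Ntrk3, Ntrk3 and Lifr, and Lifr and Fgfr2. Within a library, Ret was nevertheless above Fgfr1, Fgfr3 above Ntrk3 and Ntrk3 above Lifr in 4 of 4, so that the neighbors whose order was not kept were Fgfr1 and Cntfr, and Lifr and Fgfr2, with the first above the second in 2 of 4 libraries each. Fgfr1 was above Cntfr in both wild-type libraries and below it in both G85R libraries.

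**Figure D2:**
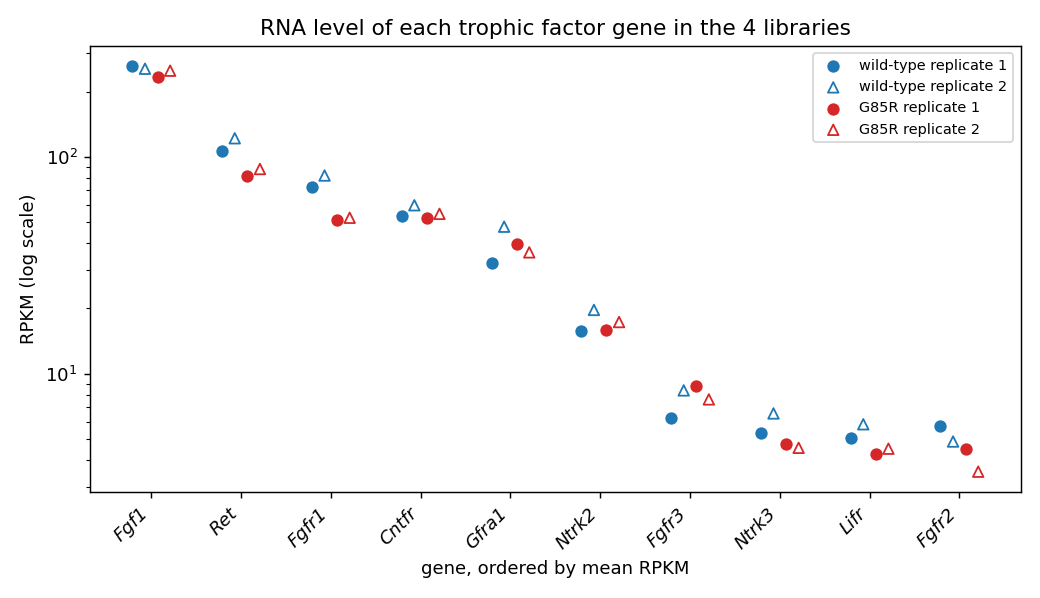
RPKM of the 10 genes in the 4 libraries (y axis, log scale; x axis, genes ordered by mean; each point is 1 library). Fgf1 lies at 234 to 262 RPKM and Fgfr2 at 3.53 to 5.74 RPKM; for Fgfr1 and Ret both G85R points lie below both wild-type points.

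Of the 10 genes, 9 had a log2 difference below 0, as 54.7% of the 11530 tested genes did, and the median over the 10 was -0.20, against -0.02 over all tested genes. In 6 of them (Fgfr1, Ret, Fgfr2, Ntrk3, Lifr and Fgf1) both G85R libraries were below both wild-type libraries, which was so for 23.9% of the tested genes. At a Benjamini-Hochberg adjusted p under 0.05, limma called 0 of the 10 and 74 of the 11530 tested genes (0.642%; 0.373% lower and 0.269% higher in G85R). The unadjusted p from limma was under 0.05 for 11.0% of the tested genes (6.37% lower in G85R), and is not given for the 10. A log-linear likelihood ratio test on the RPKM called 0 of the 10. Nothing is read from these counts, since the difference of Fgfr1 entered the choice of the set. Without G85R replicate 1, the count of genes with no overlap was again 6 of 10, beside 40.2% of the tested genes. It was 9 of 10 without wild-type replicate 1 (39.6%), 7 of 10 without G85R replicate 2 (36.6%), where 1 was above, and 6 of 10 without wild-type replicate 2 (39.5%), where 3 were above. In the last case only 6 of the 10 differences were below 0.

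**Figure D3:**
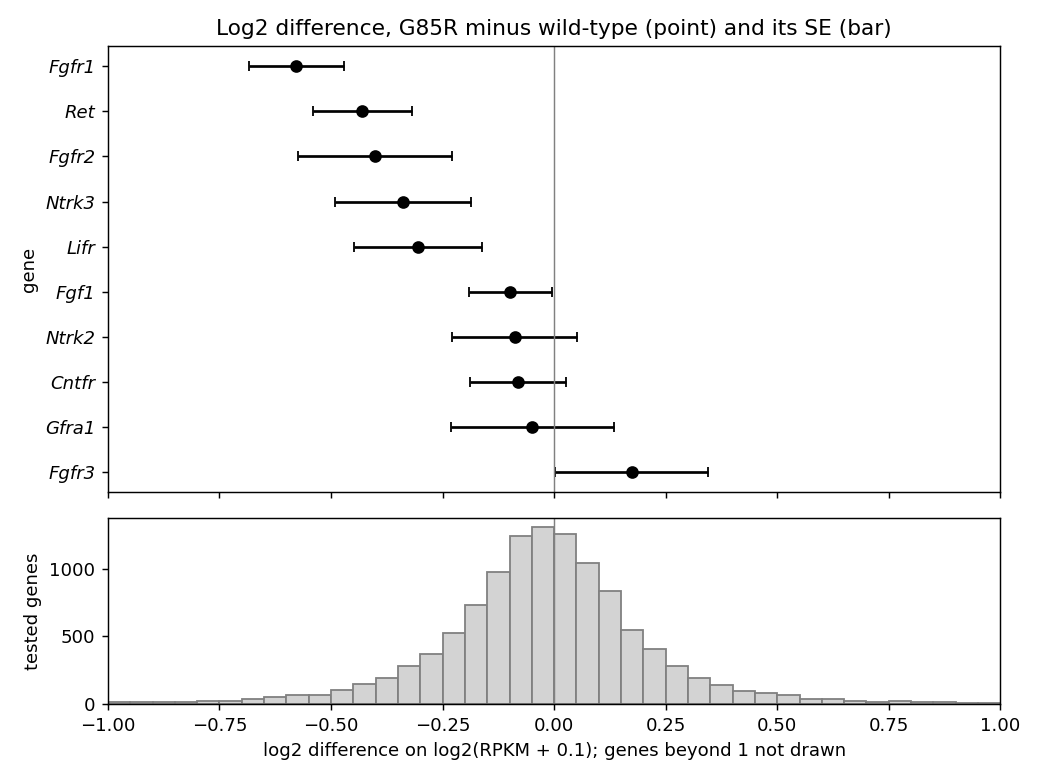
Log2 differences between genotypes (x axis, G85R minus wild-type, on log2(RPKM + 0.1)) for the 10 genes, with bars for the SE from limma (top), above a histogram of the 11530 tested genes (bottom). Fgfr1 has the lowest difference of the 10, at -0.58, and Fgfr3 is the only one above 0, at 0.17.

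The ligand Fgf1 was at 262 and 255 RPKM in wild-type and at 234 and 249.8 RPKM in G85R. The genotypes did not overlap, but the difference of -0.10 ± 0.09 was about as large as its SE. In the G85R libraries the high level of the ligand thus stood beside a lower level of its most abundant receptor. RNA pooled from many cells does not show whether the same cells held both. Fgf1 lies on chromosome 18, minus strand, and its value rested on 24513 to 31148 estimated reads per library.

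The other FGF receptors were far below Fgfr1. Fgfr2 was at 5.74 and 4.87 RPKM in wild-type and at 4.48 and 3.53 RPKM in G85R, with no overlap and a difference of -0.40 ± 0.17. Fgfr3, a receptor also known from astrocytes, was at 6.27 and 8.38 RPKM in wild-type and at 8.81 and 7.61 RPKM in G85R, with overlap and a difference of 0.17 ± 0.17. Its highest value was thus in G85R replicate 1, the library with the highest astrocyte markers, and the part of those cells in it was not tested. Fgfr1 accounted for 85.8% and 86.1% of the summed RPKM of Fgfr1, Fgfr2 and Fgfr3 in wild-type, and for 79.4% and 82.5% in G85R. The genotypes did not overlap in this share. Fgfr2 rested on 182 to 304 estimated reads. Its whole GENCODE M1 record runs over chr7:137305965-140315033, minus strand, and the exons of that record overlapped those of Ctbp2 on the same strand over 314 of 7796 bases (4.03%). The RPKM rest on UCSC gene clusters, whose range for Fgfr2 was not compared with this record. Fgfr3 (chr5:34064373-34079716, plus strand) rested on 756 to 1073 reads.

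Ret, the signaling kinase of the GDNF receptor, had the second lowest difference. It was at 107 and 122 RPKM in wild-type and at 81.4 and 87.9 RPKM in G85R. The genotypes did not overlap, and the means of 114 ± 10.8 and 84.7 ± 4.59 RPKM (SD, n = 2 each) differed by -0.43 ± 0.11, a level 1.35-fold higher in wild-type. Gfra1, which binds GDNF at the cell surface, was at 32.3 and 47.7 RPKM in wild-type and at 39.6 and 36.3 RPKM in G85R. Here the wild-type libraries lay on both sides of the G85R libraries, and their own spread of 0.56 on the log2 scale exceeded the difference of -0.05 ± 0.18. The ratio of Ret to Gfra1 was 3.30 and 2.56 in wild-type, against 2.05 and 2.42 in G85R. Ret lies on chr6:118101766-118147762 and Gfra1 on chr19:58310094-58530399, both on the minus strand, and exons of Gm16277 on the other strand overlapped 416 of 5476 exon bases (7.6%) of Gfra1.

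Of the neurotrophin receptors, Ntrk2, the BDNF receptor, was at 15.8 and 19.7 RPKM in wild-type and at 15.9 and 17.3 RPKM in G85R. The G85R values fell between the wild-type values, with a difference of -0.09 ± 0.14. Ntrk3, the neurotrophin-3 receptor, was at 5.30 and 6.56 RPKM in wild-type and at 4.73 and 4.55 RPKM in G85R, with no overlap and a difference of -0.34 ± 0.15. This lower level rested on 208 to 335 estimated reads per library. Ntrk2 was 2.98 and 3.00 times as abundant as Ntrk3 in wild-type, and 3.35 and 3.80 times in G85R. Both genes have full-length forms and forms without the kinase, and since each was quantified as 1 cluster of transcripts, those forms cannot be told apart. Ntrk2 lies on chr13:58907957-59235331, plus strand, and Ntrk3 on chr7:85337248-85723294, minus strand, and the longest stretch they share was 23 bases.

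Cntfr, the binding subunit for CNTF, was at 53.3 and 59.8 RPKM in wild-type and at 52.1 and 54.6 RPKM in G85R. The genotypes overlapped, and the difference was -0.08 ± 0.11. Lifr, the signaling subunit that CNTF and LIF share, was at 5.07 and 5.84 RPKM in wild-type and at 4.27 and 4.51 RPKM in G85R, with no overlap and a difference of -0.31 ± 0.14. Cntfr was thus the far more abundant subunit, by 10.5 and 10.2 times in wild-type and by 12.2 and 12.1 times in G85R. Cntfr lies on chr4:41604529-41644121, minus strand, and Lifr on chr15:7079559-7147489, plus strand, with 401 to 639 estimated reads per library for Lifr.

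The genes whose profile over the 4 libraries was most like that of Fgfr1 were Itgb5, Ptprj, Tmem74, Elmo2 and Mtr. Their root mean square difference from its centered log2 profile was 0.02 to 0.03, and 140 of the 11530 tested genes came within 0.1. With 4 libraries in 2 genotypes, such likeness says little more than that a gene was lower in G85R by a like amount.

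Genes of the same pathways were listed by role, 149 in all outside the 10, of which 144 were in the files and 86 tested. Limma called 0 of the 86 (0.642% of all tested genes), and the unadjusted p was under 0.05 for 11 (11.0%). Of these, 10 were lower in G85R (6.37% of all tested genes) and 1 was higher (537 of the 11530). The log-linear test also called 0, but it takes rounded RPKM as counts and so can hardly call genes of low RPKM. The median difference of the 86 was -0.04, against -0.02 for all tested genes, with both G85R libraries below wild-type for 28 (23.9% of all tested genes) and above for 14 (17.3%). The 14 above and the 11 with an unadjusted p under 0.05 in either direction were near the shares of all tested genes. The counts lower in G85R, 28 of 86 without overlap and 10 of 86 by unadjusted p, exceeded their shares (23.9% and 6.37%). The 1 of 86 that was higher by unadjusted p fell below its share (537 of 11530). These departures were not tested.

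FGF feedback and target genes, which FGF receptor signaling is known to induce, were lower on average in G85R. All 11 tested members had a difference below 0 (9 of 11 after quantile normalization), as 54.7% of all tested genes did, with a median of -0.30. In 7 of the 11 both G85R libraries were below both wild-type libraries (23.9% of all tested genes), and in 0 above (17.3%). Limma called 0 (0.642% of all tested genes), with an unadjusted p under 0.05 for 3, all lower in G85R (6.37%). Without G85R replicate 1 the median was -0.44 with 10 of 11 below 0, and without G85R replicate 2 it was -0.15 with 9 of 11, so that G85R replicate 2 carried the lower values.

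Etv5, an ETS transcription factor, was at 6.32 and 6.85 RPKM in wild-type and at 4.80 and 4.23 RPKM in G85R (-0.54 ± 0.14, limma adjusted p = 0.206). Dusp4, a MAP kinase phosphatase, was at 1.51 and 1.55 RPKM in wild-type and at 1.06 and 0.625 RPKM in G85R (-0.83 ± 0.29, limma adjusted p = 0.367). Both had genotypes that did not overlap. Spry2, a feedback inhibitor, was at 8.37 and 8.49 RPKM in wild-type and at 8.02 and 6.65 RPKM in G85R (-0.20, limma adjusted p = 0.682). Spred1, an inhibitor of Raf activation, was at 10.7 and 11.2 RPKM in wild-type and at 9.88 and 8.00 RPKM in G85R (-0.30, limma adjusted p = 0.504). Its relative Spred2 overlapped between genotypes, at 7.50 and 8.55 RPKM against 8.01 and 5.25 RPKM. Spry1 (-0.04), Dusp5 (-0.03) and Spred3 (-0.11), named after their values were seen, also overlapped and had the differences nearest 0. The other 3 without overlap, named after their values were seen, were Spry4 (6.29 and 6.30 against 4.94 and 3.81 RPKM), Dusp6 (3.57 and 3.78 against 3.15 and 2.80 RPKM) and Etv4 (1.75 and 1.93 against 1.50 and 1.33 RPKM).

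**Figure D4:**
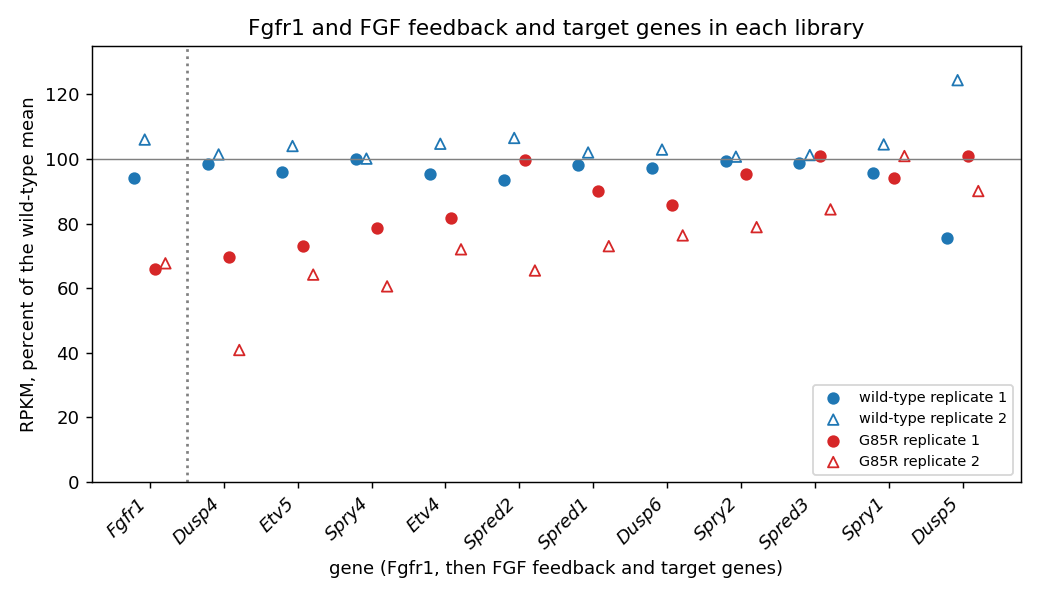
RPKM of Fgfr1 (left of the dotted line) and of the 11 tested FGF feedback and target genes in each library, in percent of the mean of the 2 wild-type libraries (y axis; each point is 1 library). Fgfr1 is at 66.0% and 67.7% in G85R, and Dusp4 has the lowest G85R values of the feedback genes.

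Among the FGF ligands, 6 of 17 were tested. Fgf9 was the most abundant after Fgf1, at 57.4 and 39.6 RPKM in wild-type and at 53.4 and 48.2 RPKM in G85R, with overlap (0.09, limma adjusted p = 0.927). Fgf18 was at 20.1 and 22.3 RPKM in wild-type and at 18.0 and 16.2 RPKM in G85R, without overlap (-0.31 ± 0.12, limma adjusted p = 0.417). Fgf10 was likewise lower without overlap, at 3.20 and 3.26 against 2.06 and 2.61 RPKM (-0.46 ± 0.18, limma adjusted p = 0.419), and Fgf22 overlapped at 3.15 to 4.07 RPKM. Fgf21, an endocrine FGF that needs the co-receptor Klb, was at 0.470 and 0.578 RPKM in wild-type and at 3.84 and 1.23 RPKM in G85R (1.88 ± 0.48, limma adjusted p = 0.198). Its G85R libraries differed more from each other than the wild-type libraries did. Klb was at 0.0327 to 0.0718 RPKM, resting on 3 to 7 estimated reads, and Kl at 0.0613 to 0.119 RPKM. Fgf2, like Fgf1 an FGF without a signal peptide, was at 0.0692 to 0.221 RPKM, or 1 to 3 reads, so that a difference was not detectable at this depth. Fgfr4 was listed at 0 in 3 libraries and at 0.0112 RPKM in G85R replicate 2, and the receptor Fgfrl1, which lacks the kinase, was at 2.32 and 2.97 RPKM in wild-type and at 3.79 and 2.78 RPKM in G85R.

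The FGF homologous factors, intracellular relatives of FGFs that bind sodium channels, were well represented. Fgf12 was at 58.0 to 74.8 RPKM, Fgf11 at 30.0 to 35.5 RPKM and Fgf14 at 8.15 to 9.55 RPKM. Fgf13 was at 12.2 and 11.4 RPKM in wild-type and at 7.40 and 8.65 RPKM in G85R (-0.56 ± 0.13, limma adjusted p = 0.167, the lowest adjusted p among the 86 genes). All 4 had differences below 0 (54.7% of all tested genes), with a median of -0.14, and in 3 both G85R libraries were below both wild-type libraries (23.9%).

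**Figure D5:**
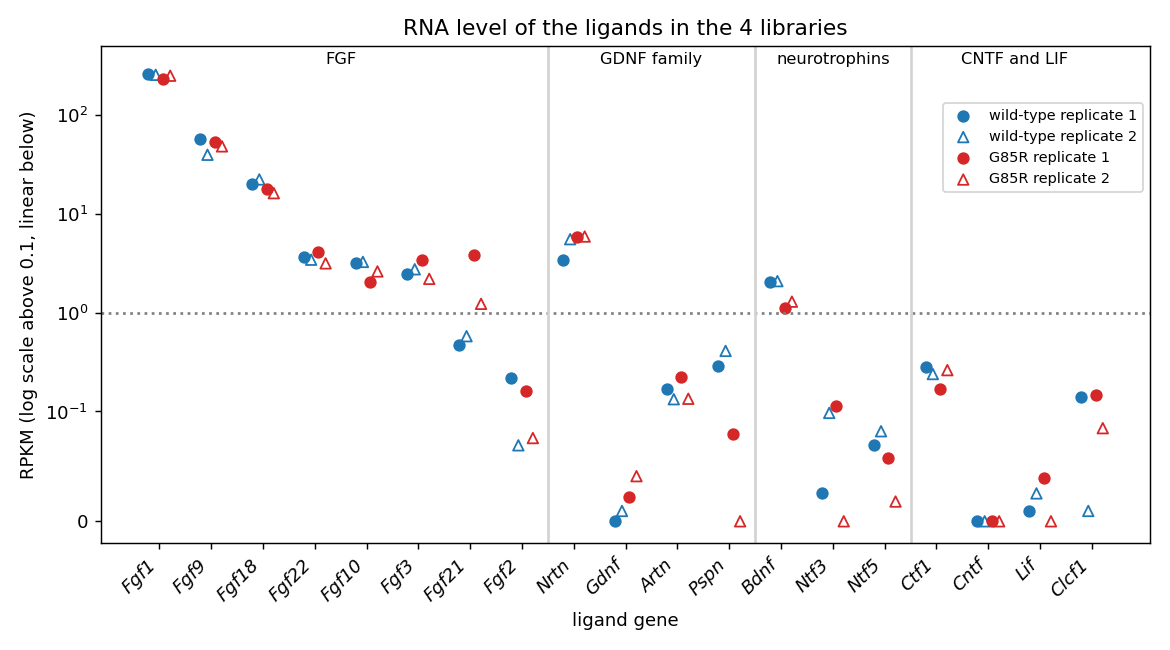
RPKM of 19 ligands of the FGF, GDNF, neurotrophin and CNTF and LIF families in each library (y axis, log scale above 0.1 and linear below; the dotted line marks 1 RPKM, the minimum mean for the test). Fgf1 is at 234 to 262 RPKM, while Gdnf, Cntf and Lif lie at or near 0 in all libraries.

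The ligands of the other receptors were low in these cell bodies. Gdnf was listed at 0 in wild-type replicate 1 and at 0.0094, 0.0218 and 0.0411 RPKM in wild-type replicate 2 and G85R replicates 1 and 2, which came to 1, 2 and 4 estimated reads. Cntf was listed at 0 in all 4 libraries, Lif was at 0 to 0.0394 RPKM and Ntf3, which encodes neurotrophin-3, at 0 to 0.115 RPKM. Bdnf, the ligand of Ntrk2, and neurturin were exceptions. Bdnf was at 2.04 and 2.08 RPKM in wild-type and at 1.10 and 1.29 RPKM in G85R. Its genotypes did not overlap (-0.74 ± 0.20, limma adjusted p = 0.233). Nrtn, which encodes neurturin, a GDNF relative, was at 3.38 and 5.54 RPKM in wild-type and at 5.78 and 5.89 RPKM in G85R (0.42 ± 0.23, limma adjusted p = 0.569).

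Among the other tested receptors of these ligands, Sorcs3 and Il6st were lower and Sort1 and Sorcs1 higher in G85R without overlap. Of all tested genes, 23.9% were lower and 17.3% higher without overlap, and limma called none of these receptors. Gfra4, a relative of Gfra1, was at 13.2 to 23.1 RPKM, and Ncam1, an alternative GDNF receptor, at 39.1 to 45.5 RPKM, both with overlap. Sort1, which binds proneurotrophins, was at 40.3 and 39.5 RPKM in wild-type and at 43.1 and 43.4 RPKM in G85R, while its relatives Sorcs2 (6.93 to 10.2 RPKM) and Sorcs3 were less abundant. Sorcs3 was at 8.50 and 9.45 RPKM in wild-type and at 6.27 and 7.62 RPKM in G85R (-0.37, limma adjusted p = 0.419). Sorcs1, named after its values were seen, was at 5.415 and 5.653 RPKM in wild-type and at 6.129 and 6.259 RPKM in G85R. Il6st (gp130), the signaling partner of Lifr, was at 15.2 and 15.7 RPKM in wild-type and at 11.9 and 14.7 RPKM in G85R (-0.22, limma adjusted p = 0.636). It was thus lower without overlap, like Lifr. Il11ra1 was at 1.07 to 1.64 RPKM with overlap.

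Downstream genes that these receptors share did not all go in the same direction (54.7% of all tested genes were below 0). Of 16 tested adaptors, 8 were lower and 8 higher in G85R, with a median of 0.00, and Grb2, which links receptors to Ras, was at 63.9 and 59.6 RPKM in wild-type and at 69.6 and 67.0 RPKM in G85R. Of 12 Ras and MAP kinase genes, 5 were lower and 7 higher, and Mapk3 (Erk1) was at 70.9 and 79.2 against 89.2 and 83.4 RPKM (0.20, limma adjusted p = 0.555). Of 11 PI3 kinase and Akt genes, 8 were lower and 3 higher, and Akt2 was at 2.64 and 2.58 against 1.80 and 1.68 RPKM (-0.56 ± 0.17, limma adjusted p = 0.308), while the more abundant Akt1 was at 64.0 and 66.1 against 74.1 and 69.5 RPKM (0.14, limma adjusted p = 0.687). Of 7 Jak and Stat genes, 4 were lower and 3 higher, with a median of -0.18. Jak1, the most abundant, was at 102 and 99.9 RPKM in wild-type and at 83.2 and 96.2 RPKM in G85R (-0.18, limma adjusted p = 0.639). Both G85R libraries were below both wild-type libraries for 4 Jak and Stat and 5 PI3 kinase and Akt genes (23.9% of all tested genes). They were above for 0 and 3 (17.3%). The adaptors had 3 below and 3 above, and the Ras and MAP kinase genes 0 below and 4 above.

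The remaining genes of these lists are given by level. Ptpn11, Sh2b1, Hras1, Pik3r2 and Stat3 overlapped between genotypes with differences of -0.04 to 0.07, and Shc3 overlapped with -0.26. Araf (0.09) and Map2k5 (0.24) were higher without overlap, and Dok5 (-0.26), Pik3cd (-0.37) and Stat5b (-0.32) were lower without overlap, none of them called by limma. Of 25 other growth factor receptor kinases only 7 were tested. Ddr1 (16.6 to 18.8 RPKM) and Tyro3 (18.4 to 20.3 RPKM) were the most abundant of them, and Insr (2.85 to 3.45 RPKM), Flt1 (0.987 to 1.49 RPKM) and Csf1r, a microglial receptor (1.79 to 3.42 RPKM, highest in G85R replicate 1), were low. Of all receptor kinases listed, Ret and Fgfr1 thus had the highest RNA levels in the captured cells, in wild-type as in G85R.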

How the data were processed

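The authors mapped reads with Bowtie 0.12.3 (version from the submitters' processing notes) to mm9 and a splice junction database built from UCSC Known Genes, and quantified each UCSC gene cluster with Cufflinks. The deposited values are RPKM, once as calculated and once after adding 1 read per gene. Subtracting one from the other gave what 1 read was worth, and from it an estimate of the reads of each gene. Cufflinks splits reads between isoforms, so these estimates are no counts and carry no interval. The mapped read column of the files is empty, and the study's own read totals were not used. The labels describe a paired-end protocol and the study's methods single-end reads of 75 bases, and no step here depends on it.

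Genotypes (2 against 2 mice, no block) were tested by limma 3.58.1 (lmFit, eBayes with trend; R 4.3.3) on log2(RPKM + 0.1) for 11530 genes with a mean of at least 1 RPKM, adjusted by Benjamini-Hochberg over all of them. Fold changes on this scale understate those of low genes. The study's log-linear likelihood ratio test, run on rounded RPKM with 1 read added, was an alternative. Differences between genotypes rest on 2 mice each.

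The 10 genes, the pathway and marker lists and the tests were chosen with earlier results of these data known. Named from each pathway list were the 3 genes with the highest mean, every gene called and the 2 tested genes with the largest difference, besides Gdnf, Bdnf, Ntf3, Cntf, Lif and Fgf2 and the 5 genes nearest to the profile of Fgfr1. Spry3, Kidins220, Mtor and the marker Ermn were listed but not analysed here, and some genes that the rule names are not reported here. Primers and shared stretches were matched to NCBIM37 and GENCODE M1 coding transcripts with Python 3.11.15. Alternatives were pseudocounts of 1 and 0.01, the values with 1 read added, other minimum RPKM (5 or none), 2 other scalings, other variance settings, a replicate block and leaving out each library. Counts without overlap with 1 library left out were added after seeing the data.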

Additional observations from a re-analysis of the deposited data

How the results depend on the processing

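The log2 difference of Fgfr1 lay between -0.66 and -0.49 and that of Ret between -0.53 and -0.33 over all 14 alternatives that gave one, and Fgfr2, Ntrk3, Lifr and Fgf1 also stayed below 0 in each that gave a value. Cntfr, Fgfr3 and Ntrk2 changed sign in 1 of these alternatives and Gfra1 in 2, each with 1 library left out. The other minimum RPKM, the other variance settings and the replicate block cannot move the difference of a tested gene, only its SE. Calls among all tested genes numbered 74, against 39 after quantile normalization, 17 at a minimum mean of 5 RPKM, 112 without a filter, 49 without the trend, 527 with a replicate block and 78 to 188 with 1 library left out, most without G85R replicate 2. The numbers of the replicates pair no animals in the labels, and the correlation of their deviations was 0.22 over 11530 genes. With the replicate block, limma called 2 of the 10 genes (Fgfr1 and Ret, from which nothing is read since the set was chosen on this difference) and 2 of the pathway genes (Fgf21 and Fgf13, limma adjusted p = 0.0161 and 0.0286). With 1 library left out, 0 to 1 pathway genes were called, Fgf21 without G85R replicate 2 (limma adjusted p = 0.00121), where the lone G85R library is assumed to vary like the wild-type ones.

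FGF feedback and target genes below 0 numbered 6 of 6 at a minimum mean of 5 RPKM, since fewer were tested. Those without overlap numbered 7 to 11 with 1 library left out, 11 being without wild-type replicate 1, where 39.6% of all tested genes were below without overlap (36.6% to 40.2% over the 4 settings), and 1 lay above without wild-type replicate 2. With 1 library left out, the log2 difference changed sign for Fgf9 (-0.18 to 0.36), Fgf22 (-0.17 to 0.19), Fgf12 (-0.25 to 0.12), Gfra4 (-0.063 to 0.54), Ncam1 (-0.16 to 0.057), Il11ra1 (-0.0018 to 0.53), Shc3 (-0.58 to 0.056), Ptpn11 (-0.018 to 0.067), Sh2b1 (-0.054 to 0.13), Hras1 (-0.20 to 0.33), Pik3r2 (-0.16 to 0.078), Stat3 (-0.028 to 0.090), Flt1 (-0.020 to 0.38), Csf1r (-0.23 to 0.67), Ddr1 (-0.12 to 0.061) and Tyro3 (-0.072 to 0.071). Ddr1 was also at 0.0035 after quantile normalization, and Tyro3 at 0.0184 after quantile normalization and at 0.0222 after rescaling by the median ratio. The causes were not tested. Genes of a few reads, such as Gdnf, Ntf3 and Lif, are limited by depth.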
